A study of Mus musculus with 4 samples.

Results

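The genes described here encode 10 proteins of the Z-disc, the plate that borders each sarcomere of striated muscle: the alpha-actinins Actn2 and Actn3, the myozenins Myoz1, Myoz2 and Myoz3, and the partners Nexn, Myot, Synpo2l, Flnc and Des. They were taken by gene symbol from a heart table and a tibialis anterior (TA) table. Of the 10 genes, 7 were listed for heart and all 10 for TA, out of 10791 and 10352 gene symbols, with 11237 symbols in either table. The material was heart and TA, a fast muscle of the lower hindlimb, from male C57BL/6J mice of 10 weeks, with no treatment named in the labels. Each tissue gave 1 library of ribosome-protected fragments (RPF, the short stretches of mRNA that a ribosome shields from nuclease) and 1 library of total RNA depleted of ribosomal RNA, so there were 4 libraries and no replicates. By the protocol in the labels, a lysate of frozen tissue was split to give RPF and RNA, and the number of mice behind each lysate is not stated there. No group had a second library, so nothing below could be tested and p-values are absent. The 95% intervals printed beside ratios and levels reflect counting error alone, and a gene is called higher or lower from a difference of 2-fold.

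At the Z-disc, thin filaments of neighbouring sarcomeres overlap and are tied together by antiparallel dimers of alpha-actinin. Actn2 is the alpha-actinin of heart and of all skeletal fibre types, and Actn3 is that of fast glycolytic fibres. Myozenins (also named calsarcins or FATZ proteins) bind alpha-actinin, filamin C and the phosphatase calcineurin, with Myoz1 and Myoz3 known from fast fibres and Myoz2 from heart and slow fibres. Nexn (nexilin) binds actin filaments, Myot (myotilin) binds and bundles actin with alpha-actinin, and Synpo2l (also called CHAP) is a synaptopodin relative that binds alpha-actinin. Flnc (filamin C) links actin to the Z-disc and to the membrane, and Des (desmin) forms the intermediate filaments that connect Z-discs of adjacent myofibrils.

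Values are RPM, the authors' reads on a gene's coding sequence scaled to a common library total. Levels are compared between genes only after division by coding length (RPM per kb). The libraries held about 28120000 coding reads (heart RPF), 9290000 (heart RNA), 28540000 (TA RPF) and 16050000 (TA RNA), as read from the step between low values. The libraries were checked against defining markers of their labelled tissue: 7 of 7 cardiomyocyte mRNAs were listed in heart with 8.69% of its coding RNA, and 4 of 7 in TA with 0.00106%. Of 9 fast skeletal fibre mRNAs, 8 were listed in TA with 19.4% of its coding RNA, and 5 in heart with 0.0153%. The cardiac Myh6, Nppa and Ryr2 were not listed for TA, the fast Myh4, Myh1 and Ryr1 were not listed for heart, and Cacna1s was listed for neither. Why a gene was or was not listed is unstated, and a gene without a value may have been expressed. In bulk tissue, fewer cells of a type and less RNA per cell cannot be told apart.

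The start codon surroundings of the members are shown first as a description, and their relation to footprints was not tested. They were read from GENCODE transcripts of build GRCm38 matched to the tables' RefSeq accessions. The tables rest on mm9, so the coordinates of the start codons are those of GRCm38 alone. In all 10 matched transcripts the reading frame was 6 nt longer than the coding length of the tables. Each line gives 10 bases before the start codon and 1 base after it, with the start codon, the base at position -3 and the base at +4 in capitals (the A of the start codon is position +1). The start codons lie at chr13:12340498-12340500 (Actn2, minus strand), chr19:4877852-4877854 (Actn3, minus), chr14:20655346-20655348 (Myoz1, minus), chr3:123034265-123034267 (Myoz2, minus), chr3:152255309-152255311 (Nexn, minus), chr14:20668193-20668195 (Synpo2l, minus), chr6:29433459-29433461 (Flnc, plus) and chr1:75360418-75360420 (Des, plus). They fall in exon 1 of Actn2, Actn3, Synpo2l, Flnc and Des and in exon 2 of Myoz1, Myoz2 and Nexn.
Actn2: acccagcGccATGA
Actn3: cctgagcAagATGA
Myoz1: cacctccAccATGC
Myoz2: acaaaaaActATGC
Nexn: tatagcaAacATGA
Synpo2l: aagctgtGcgATGG
Flnc: ccgcgccAccATGA
Des: cgccgccAccATGA
A purine at -3, the position that weighs most in a start codon's surroundings, was present in all 10 members and in 86.8% of 10913 genes. A G at +4 was present in 1 member, Synpo2l, against 53.0% of 11044 genes.

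Upstream ATG triplets, at which a ribosome can start before it reaches the coding sequence, were found in the 5-prime untranslated region of 3 members, Myoz2 (3 triplets), Nexn (2) and Myot (1). In all, 51.3% of the 11044 genes had at least 1. The lines below show those of Myoz2 and Nexn, the members with the lowest and the highest ratio of footprints to RNA, with the ATG in capitals.
Myoz2 at 197 nt before the start codon: tagccagttgATGt
Myoz2 at 186 nt: tgtcagctggATGc
Myoz2 at 132 nt: tcgagggaccATGc
Nexn at 98 nt: gtgcttttagATGa
Nexn at 95 nt: cttttagatgATGt
Read from each of the 5 triplets, the frame ended before the start codon. From those of Myoz2 it ran for 58, 25 and 7 codons and from those of Nexn for 2 and 1. The Myoz2 triplets at 186 and 132 nt share 1 frame, that of the coding sequence, and 1 stop, which ends 108 nt before the start codon. Both Nexn triplets share a stop that ends 89 nt before it. Only the Myoz2 triplet at 132 nt lies within the 181 nt of 5-prime untranslated region that the tables give Myoz2, since the matched transcript begins further upstream (209 nt).

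Reads that fit 2 related genes equally well could blur a family, so exact shared stretches were counted. Footprints were cut from the gel at 26 to 36 nt. Of the 2660 stretches of 26 nt in the Actn2 coding sequence, 28 (1.05%) also occurred in Actn3. They include the longest run that both share, 51 nt from position 1003 of the Actn2 frame and 1021 of the Actn3 frame.
Actn2 and Actn3 shared run: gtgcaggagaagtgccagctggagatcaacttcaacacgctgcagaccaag
Myozenins shared no stretch of 26 nt with each other, nor did Des with its relative Vim, and Flnc shared 1 with Flna.

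Alpha-actinin RNA and footprints were those of Actn2 in heart and mainly those of Actn3 in TA. Actn3 had 9189 RPM of RNA and 9513 RPM of RPF in TA and was not listed for heart. Per kb it had 3407 in TA RNA (rank 17 of all genes) and 3527 in TA RPF (rank 25), the highest level of any member in either library. Actn2 had 2539 RPM of RNA and 4570 RPM of RPF in heart, and 621 and 1800 RPM in TA. Its heart level was the higher in both kinds of library, by 4.09-fold in RNA (4.00 to 4.19) and by 2.54-fold in RPF (2.51 to 2.56).

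The share of Actn2 in the alpha-actinins of TA was larger among footprints than among RNA. Over Actn1, Actn2, Actn3 and Actn4, per kb, Actn2 made up 6.36% of TA RNA (6.24 to 6.48%) and 15.8% of TA RPF (15.7 to 15.9%), and Actn3 93.5 and 83.0%. In heart Actn2 made up 96.2% of RNA and 94.5% of RPF. The nonmuscle alpha-actinins Actn1 and Actn4 took the rest of the heart values, with Actn4 at 2.61% of RNA and 4.15% of RPF. In TA, Actn4 took 0.185% of RNA and 1.18% of RPF, and Actn1 was not listed. Actn2 carried 2.90 times as many RPM of RPF as of RNA in TA, and Actn3 1.04 times as many.

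The myozenins differed in identity between the tissues as the actinins did. Myoz2 was the myozenin listed for heart, where it had 904 RPM of RNA and 277 RPM of RPF. In TA it had 35.7 RPM of RNA and 16.3 RPM of RPF, so its heart level was 25.3-fold higher in RNA (23.3 to 27.6) and 17.0-fold higher in RPF (15.5 to 18.7). Myoz1 had 1612 RPM of RNA and 1316 RPM of RPF in TA and was not listed for heart. Myoz3 had 35.2 RPM of RNA and 103 RPM of RPF in TA and was not listed for heart either. In TA, Myoz1 took 95.1% of myozenin RNA per kb and 90.2% of myozenin RPF. Myoz2 and Myoz3 had similar TA RNA shares, 2.36% (2.18 to 2.56%) and 2.51% (2.31 to 2.72%), whose intervals overlap. Among footprints they stood apart, with Myoz2 at 1.25% (1.14 to 1.37%) and Myoz3 at 8.56% (8.27 to 8.85%). Counted over coding sequence and untranslated regions, Myoz2 took 2.20% of RNA (2.03 to 2.38%) and Myoz3 4.71% (4.35 to 5.09%). These intervals do not overlap, but their width was taken from the coding reads alone. Myoz3 then took 2.78% of RPF, a smaller share than of RNA. This count also divides footprints by the 3-prime region of Myoz3 (2633 nt), where they reached only 0.452% of its coding density. That division by itself lowers the RPF share of Myoz3, so these shares do not compare its footprints with its RNA.

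**Figure D1:**
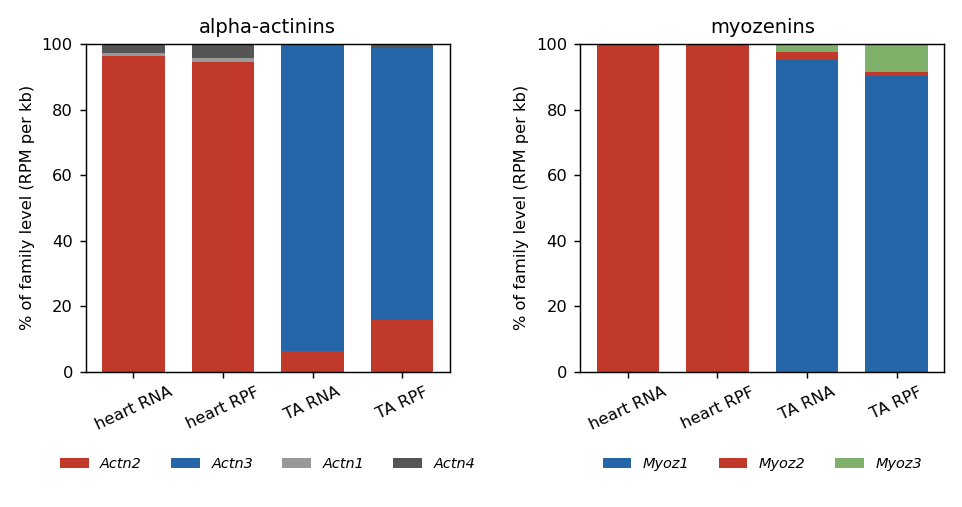
Share of each gene in the summed level of its family (RPM per kb of coding sequence, percent, stacked bars from 0 to 100) in the 4 libraries, for the alpha-actinins (left) and the myozenins (right). Actn2 and Myoz2 fill most of the heart bars and Actn3 and Myoz1 most of the TA bars, and the Actn2 part of TA is 6.36% in RNA and 15.8% in RPF.

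Myozenin footprints stood low against actinin footprints in heart. The summed level of the listed myozenins was 1.21 times that of Actn2 plus Actn3 in heart RNA and 0.206 times in heart RPF, per kb. In TA the same ratio was 0.526 in RNA and 0.393 in RPF. This ratio was chosen after its values were seen. In heart it compares Myoz2, with 1146 RPM per kb of RNA and 351 of RPF, with Actn2, with 948 and 1706.

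Among the actin-binding partners, Myot was the member with the largest difference toward TA. Myot had 51.2 RPM of RNA and 29.5 RPM of RPF in heart, and 1414 and 968 RPM in TA. TA was higher by 27.6-fold in RNA and 32.8-fold in RPF. Nexn had 249 RPM of RNA and 1033 RPM of RPF in heart, and 137 and 639 RPM in TA. Its heart to TA ratio was 1.81 in RNA (1.71 to 1.92) and 1.61 in RPF (1.58 to 1.64), so it was higher in heart in both but under 2-fold. Synpo2l was alike in both tissues, with 112 RPM of RNA and 89.4 RPM of RPF in heart and 116 and 101 RPM in TA. Its RNA ratio of 0.964 had an interval that included equality (0.893 to 1.04), whereas its RPF ratio of 0.885 did not (0.839 to 0.934).

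Flnc and Des, the linkers to membrane and intermediate filaments, were listed in both tissues, with the lower RPM in heart in both kinds of library. Flnc had 765 RPM of RNA in heart and 901 RPM in TA, a ratio of 0.849 (0.825 to 0.873). Its footprints differed more, with 666 RPM of RPF in heart and 1318 RPM in TA, a ratio of 0.505 (0.497 to 0.514) that just missed the 2-fold rule. Des had 1456 RPM of RNA and 1903 RPM of RPF in heart, and 1905 and 2183 RPM in TA, or ratios of 0.764 in RNA and 0.872 in RPF. Flnc has the longest coding sequence of the members (8175 nt), so its per kb level was far lower than that of Des, at 93.6 against 1037 RPM per kb in heart RNA.

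Ranked per kb, heart RNA ran from Myoz2 (1146) through Des (1037), Actn2 (948), Nexn (137), Flnc (93.6) and Synpo2l (38.3) to Myot (34.5). The counting intervals of neighbours overlapped for Synpo2l and Myot alone. In heart RPF the order was Actn2 (1706), Des (1356), Nexn (568), Myoz2 (351), Flnc (81.5), Synpo2l (30.6) and Myot (19.9), so Myoz2 stood at place 1 by RNA and at place 4 by footprints. TA RNA ran from Actn3 (3407) through Myoz1 (1822), Des (1357), Myot (952), Actn2 (232), Flnc (110), Nexn (75.5), Myoz3 (48.0) and Myoz2 (45.3) to Synpo2l (39.7), with overlapping intervals for Myoz3 and Myoz2. In TA RPF, Des (1555) stood above Myoz1 (1487), and Actn2 (672) above Myot (652). Nexn (352), Flnc (161), Myoz3 (141), Synpo2l (34.6) and Myoz2 (20.7) followed. Together the members took 0.611% of coding RNA and 0.860% of coding RPF in heart (7 genes), and 1.60 and 1.80% in TA (10 genes).

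**Figure D2:**
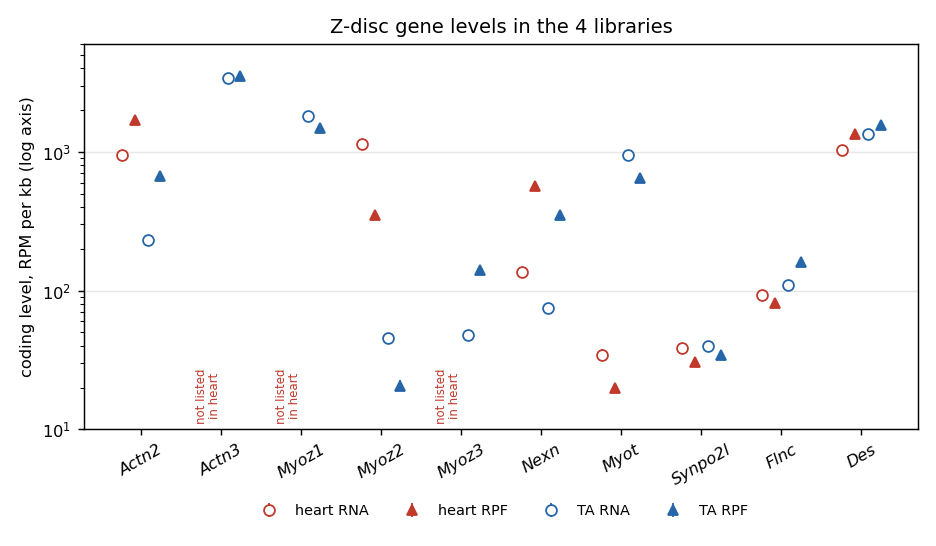
Coding level of each member in the 4 libraries (RPM per kb, log axis), with open circles for RNA and filled triangles for RPF, red for heart and blue for TA. Bars are 95% counting intervals, mostly smaller than the symbols. Actn3, Myoz1 and Myoz3 have no heart values, and Myoz2 and Myot lie on opposite sides, high in heart and high in TA.

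Translational efficiency is the RPF value of a gene over its RNA value. It is given as log2 relative to the median gene of the tissue, whose ratio was 0.737 in heart and 0.835 in TA. Nexn had the highest efficiency of the members in both tissues, 2.49 in heart (2.43 to 2.56) and 2.48 in TA (2.42 to 2.54), or 5.63-fold and 5.58-fold above the median gene. That placed it at percentile 98.8 of 10680 genes in heart and 99.1 of 10029 genes in TA. Actn2 was also more than 2-fold above the median gene in both, at 1.29 in heart and 1.80 in TA. Myoz3, measured in TA alone, stood at 1.81 (1.68 to 1.95). At the other end, Myoz2 stood at -1.27 in heart (-1.31 to -1.22), percentile 12.8, and at -0.87 in TA (-1.05 to -0.69).

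The remaining members lay within 2-fold of the median gene. Des stood at 0.83 in heart and 0.46 in TA, and Flnc at 0.24 and 0.81. Actn3 stood at 0.31 and Myoz1 at -0.03 in TA. Synpo2l stood at 0.12 in heart and 0.06 in TA, and Myot at -0.35 and -0.29. In heart 2 of 7 members were at least 2-fold above the median gene, where 16% of all genes were, and 1 was at least 2-fold below, where 17.8% were (33.8% of all genes lay outside 2-fold). In TA 3 of 10 were above, against 15.4% of all genes, and 0 of 10 below, against 18.7% (34.2% in either direction). The medians of the members were 0.24 in heart and 0.38 in TA, against 0 for all genes. With so few members these counts are a description.

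**Figure D3:**
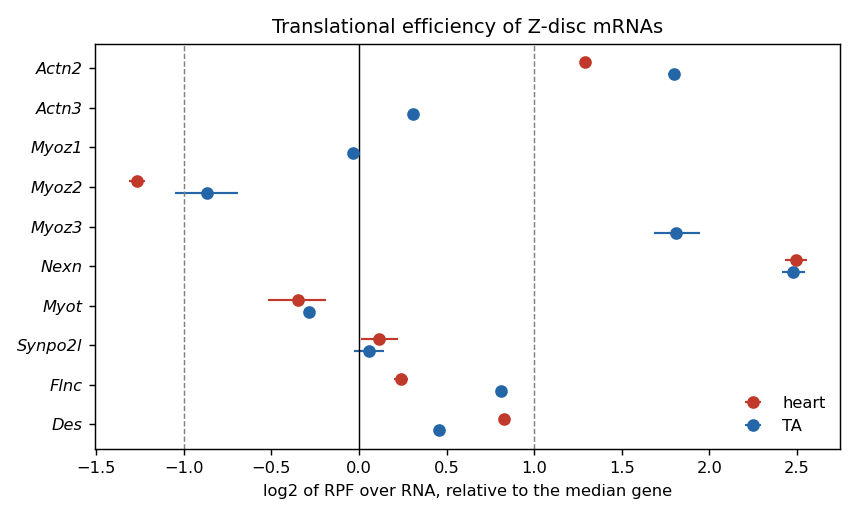
Translational efficiency of each member in heart (red) and TA (blue), as log2 of RPF over RNA relative to the median gene of that tissue (solid line at 0, dashed lines at 2-fold). Bars are 95% counting intervals. Nexn lies at 2.49 and 2.48 and Myoz2 at -1.27 and -0.87, at opposite ends of the members.

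Some of these efficiencies depend on how RNA is counted or on coding length. Myoz3 RNA was denser over the 3-prime untranslated region than over the coding sequence. When RNA was taken per kb over the whole transcript, an alternative chosen after seeing the data, its efficiency in TA was 0.82 in place of 1.81, under 2-fold, while Nexn kept 2.19 in both tissues. Efficiency fell with coding length over all genes, and with that trend removed the long Flnc stood at 1.26 in heart and 1.81 in TA, above 2-fold in both. Myoz2 in TA then stood at -1.12, past 2-fold.

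Upstream ATG triplets are set beside efficiency here as a description, and a relation between them was not tested. Genes with at least 1 had a median efficiency of -0.30 in heart (5398 genes) and genes without any 0.27 (5097 genes), and in TA the medians were -0.30 and 0.27. Myoz2, with 3 (only that at 132 nt within the 5-prime region that was measured), and Myot, with 1, were below the median gene. Nexn, with 2, was the highest member in both tissues. Among the members with none, Actn2, Actn3, Myoz3, Des and Flnc were above the median gene, and Synpo2l and Myoz1 were close to it.

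Between the tissues, 7 members could be compared. In RNA 2 of 7 were at least 2-fold higher in heart (Actn2 and Myoz2), where 35% of 9843 genes were, and 1 was at least 2-fold lower (Myot), where 3.88% were (38.9% in either direction). The same genes were called in RPF: 2 of 7 higher against 30.1% of all genes, and 1 of 7 lower against 5.06% (35.1% in either direction). The members' median log2 ratio was -0.05 in RNA and -0.18 in RPF. The median gene stood at 0.70 in RNA and 0.60 in RPF, a shift toward heart of the whole scale. Relative to the median gene, Des also passed 2-fold toward TA in RNA (-1.08), Flnc did so in RPF (-1.58) and Actn2 in RPF no longer passed 2-fold toward heart (0.75). On that scale 2 members were higher and 2 lower in RNA, and 1 higher and 2 lower in RPF. The shares of all genes given above are for the uncentred ratios, and those on the centred scale are not given here. Nexn, at 0.16 in RNA and 0.09 in RPF, was then close to the median gene.

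**Figure D4:**
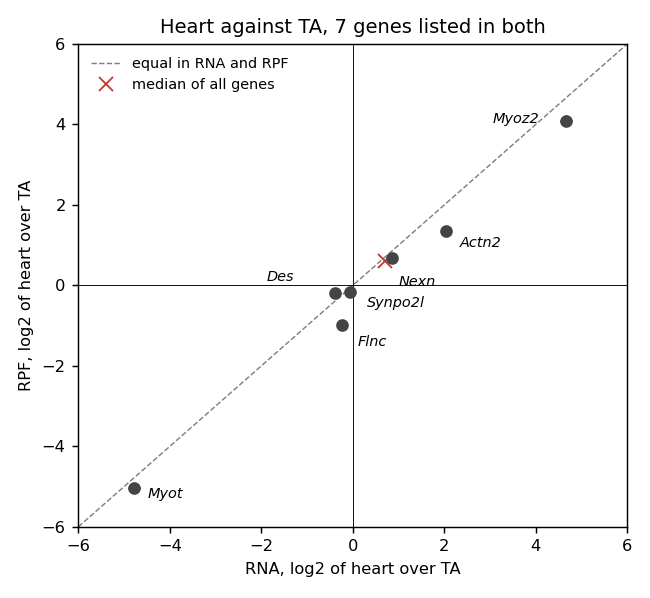
Heart to TA ratio of the 7 members listed in both tissues, RNA on the x axis and RPF on the y axis, both as log2. Bars are 95% counting intervals, mostly smaller than the points, the dashed line marks equal ratios, and the cross is the median of all genes. Myoz2 lies at 4.66 in RNA and 4.08 in RPF, Myot at -4.79 and -5.03, and Flnc furthest under the line among genes near 0.

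No member differed by 2-fold or more in efficiency between heart and TA, as for most genes: of 9635 genes 4.07% had an efficiency 2-fold or more above that in TA and 2.34% one 2-fold or more below it, 6.4% in all. The differences, heart minus TA on the log2 scale, ran from -0.57 for Flnc (-0.62 to -0.52) and -0.51 for Actn2 (-0.55 to -0.47) to 0.37 for Des (0.34 to 0.40). For Myoz2 it was -0.40 (-0.58 to -0.22). The intervals of Nexn (0.01, -0.07 to 0.10), Myot (-0.06, -0.23 to 0.10) and Synpo2l (0.06, -0.08 to 0.19) included 0. On this centred scale the efficiencies of both tissues for Nexn, Myot and Synpo2l were therefore not distinguishable beyond counting error. For the other 4 they differed beyond it, with no replicate to set against it. The differences depend on the centring. Uncentred, the heart and TA efficiencies were 2.05 and 2.22 for Nexn, -0.79 and -0.55 for Myot, and -0.32 and -0.20 for Synpo2l.

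Reads on the untranslated regions were a readout that the choice of members did not use. Densities are RPM per kb of that region as a percent of the coding density of the same gene and library. Over genes with at least 10 RPM of coding reads the median 5-prime density of footprints was 12.8% in heart (6437 genes) and 6.94% in TA (5283 genes). Nexn was lowest of the members, with 0.201% in heart (5 reads) and 0.126% in TA (2 reads). Among all these genes that was percentile 19.1 in heart and 23.2 in TA, as 18.7 and 22.6% of them had no 5-prime footprints. In RNA the 5-prime region of Nexn (158 nt) held 24.2 and 15.6% of the coding density. Actn2 had 3.88% in heart and 1.41% in TA, and Actn3 3.31% in TA. Myoz2 had 4.96 and 6.42%, and its 5-prime RNA was dense, at 79.6% of coding in heart and 61.4% in TA.

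Higher 5-prime footprint densities were seen for Synpo2l, with 63.6% in heart (61 reads) and 32.8% in TA (36 reads), and for Myoz1, with 32.1% in TA (1734 reads). The Myoz1 region of 127 nt has no ATG in the matched transcript of the same length. Flnc had 41.6% in heart (293 reads) and 13.3% in TA (188 reads), in a 5-prime region of 306 nt in the tables against 183 nt in the matched transcript. For Flnc, 5-prime footprints exceeded 5-prime RNA in RPM in both tissues, with 10.4 against 2.46 in heart and 6.58 against 4.29 in TA. Myot had 14.9% in heart and 11.5% in TA, Des 9.53 and 2.34%, and Myoz3 3.82% in TA (4 reads, over 26 nt). Of the 7 members in both tissues, 6 had the higher percentage in heart, all but Myoz2, in the direction of the medians of all genes.

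In the 3-prime untranslated region footprints were nearly absent while RNA was not. Footprint densities of the members there ran from 0 to 1.03% of coding density in heart and from 0 to 0.767% in TA. They were low over all genes too, with medians of 0.647% in heart and 0.322% in TA. The 3 values of 0 were Myot in heart (which at 3 reads allows up to 1.21%) and Myoz2 and Synpo2l in TA (up to 2.87 and 0.344%). RNA density there was highest for Myoz3, with 199% of its coding density in TA, percentile 99.1 of 5958 genes, over a region of 2633 nt. Nexn had 152% in heart and 157% in TA, and Synpo2l 150 and 149%, against medians of 70.3 and 74.8% over all genes. Des had 107 and 130%. Actn3 (52.8%), Actn2 (60.2 and 68.4%) and Myoz2 (63.8 and 57.4%) lay under the medians.

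**Figure D5:**
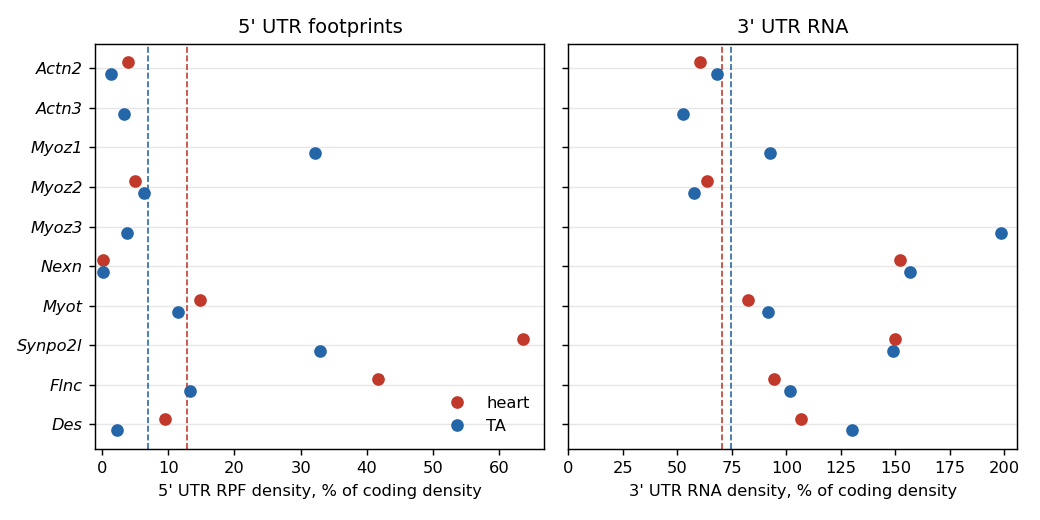
Density of footprints in the 5-prime untranslated region (left) and of RNA in the 3-prime untranslated region (right), each as a percent of the coding density of the same gene, for heart (red) and TA (blue). Dashed lines are the medians over genes with at least 10 RPM of coding reads. Synpo2l, Flnc and Myoz1 stand highest on the left and Nexn lowest, and Myoz3, Nexn and Synpo2l stand highest on the right.

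Promoter sequence (250 bases before to 50 after the start of a transcript, from RefSeq on GRCm38.p6) was at hand for 5 members, Actn2, Myoz2, Synpo2l, Flnc and Des, in 7 entries. The sites below are shown for Actn2, a member at least 2-fold higher in heart, with the matched letters in capitals. Given here, from a search of both strands, are the E-box CANNTG and the MCAT element CATTCC, which are bound by helix-loop-helix and TEAD factors in muscle genes.
Actn2 E-box, chr13:12340803-12340824, minus strand: gccaaccaCACGTGttggagac
Actn2 E-box, chr13:12340767-12340788, minus strand: gccggcagCACGTGactctcag
E-boxes were found in Actn2 (3), Myoz2 (2), Des (2) and Synpo2l (2 and 4) but not in Flnc, and in 72.3% of 32851 promoters. The Actn2 entry held 2 copies of the E-box form CACGTG, which 7.15% of promoters held at least once. CATTCC was found in Flnc alone, where both entries hold the same copy, and in 14.7% of promoters. These matches are a description of the letters in these windows.

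A wider list of 37 other Z-disc and associated genes was measured beside the members, with 37 listed in heart and 35 in TA. By RNA 14 of 35 passed 2-fold toward heart and 9 toward TA (median 0.09), beside the 35 and 3.88% of all genes given above. Relative to the median gene these counts were 7 and 15, and without the 50 most abundant genes 9 and 14. The shares of all genes on these other scales are not given here, so those counts have no background beside them. By RPF 7 passed toward heart and 12 toward TA (median -0.19), beside 30.1 and 5.06%. Csrp3, the muscle LIM protein, was highest toward heart with 1210 RPM of RNA against 26.3 in TA (log2 5.52) and 1296 RPM of RPF against 24.7 (5.71). Cryab, a small heat shock protein that binds desmin, followed at 2.49 in RNA and 1.94 in RPF. Lowest were Neb, the thin filament ruler nebulin, at -7.87 in RNA and -9.38 in RPF, and Synm, the desmin partner synemin, at -5.01 and -5.75. Thus Synm was low in heart where Des was not, with 22.6 RPM of RNA in heart and 730 in TA.

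Efficiency in the wider list was at least 2-fold above the median gene for 15 of 37 genes in heart and 16 of 35 in TA, and at least 2-fold below it for 4 and 1, with medians of 0.42 and 0.72. The shares of all genes were 16% above and 17.8% below in heart, and 15.4 and 18.7% in TA. The 3 Z-disc chaperones were among those above in both tissues, and 4 of 5 PDZ-LIM proteins, which bind alpha-actinin, were in each tissue. Neither synaptopodin of the list was, as Synpo2l was not. Between the tissues 1 gene was at least 2-fold more efficient in heart, the actin-binding Xirp2 (1.26), and 5 at least 2-fold less (all genes: 4.07 and 2.34%). Lowest were Nes, the intermediate filament protein nestin (-1.41), and Neb (-1.33). Xirp2 itself was far below the median gene in both tissues, at -2.60 in heart and -3.86 in TA. Next highest after Xirp2 in the difference was Rcan1, a calcineurin regulator, at 0.44. By role, all 3 Z-disc chaperones passed 2-fold toward heart in RNA, as 35% of all genes did, with Cryab at 2.49, Bag3 at 1.65 and Hspb1 at 1.23. Set against the median gene (0.70), Cryab alone stays past 2-fold. In RPF 2 of the 3 passed, and Hspb1 stood at 0.34. The calcineurin group had 1 of 5 toward heart and 2 toward TA in RNA, and 1 and 3 in RPF. The PDZ-LIM proteins had 2 of 5 toward heart and 2 toward TA in RNA, and 1 and 2 in RPF. Over all genes 3.88% passed toward TA in RNA and 5.06% in RPF.

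Markers of other cells were listed beside these results, and their part in them was not tested. Smooth muscle, which also makes Des and Flnc, had 5 of 6 markers listed in each tissue, with 0.0378% of heart RNA and 0.0133% of TA RNA. Of 7 slow fibre markers, 5 were also listed in heart, with 4.07% of its RNA. Most of this was Atp2a2 (25167 RPM), then Myl2 (8873 RPM), Myl3 (4608 RPM) and Tnnc1 (1736 RPM). Only Tnnt1 and Tnni1 were chosen as markers not expected in heart, where Tnnt1 had 13.3 RPM and Tnni1 was not listed. In TA 6 were listed, with 0.0102% of its RNA, from 1.24 RPM for Tnni1 to 65.4 RPM for Atp2a2. The TA values stand beside 35.7 RPM of Myoz2, and Myh7 was listed in neither table. Fibroblast markers had all 5 listed, at 0.128% of heart RNA and 0.116% of TA RNA, and endothelial markers all 4, at 0.0863 and 0.0199%. Leukocyte markers had 3 of 3 listed (0.00644 and 0.00112%), Schwann cell markers 2 of 3 in heart and 3 of 3 in TA (0.000216 and 0.00166%), and satellite cell markers none in heart and 2 of 3 in TA (0.000237%).

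By levels per kb in the 4 libraries (log2 scale, Euclidean distance, 7570 other genes listed in both tissues with at least 10 RPM of RNA in 1 or both), nearest genes were found for the 7 members listed in both tissues. Nearest to Actn2 were Myl12a (distance 0.36) and Got1 (0.63), and nearest to Nexn were Ptma (0.53) and Rhoa (0.59). For Synpo2l they were Cse1l (0.11) and Mkrn2 (0.22), for Flnc Psmd8 (0.35) and Cab39 (0.36), and for Des Atp5e (0.67) and Eef1a2 (1.06). Myoz2 had Ivns1abp at a distance of 1.67 among its nearest genes. Nearest to Myot were Tmod4, a thin filament cap of skeletal muscle (1.19), and Phka1, a subunit of muscle phosphorylase kinase (1.47). None of these 7 was among the 2 nearest genes of another.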

How the data were processed

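RPF and RNA libraries of heart and TA were deposited as 1 table per tissue, with RPM values (named so per the file headers, not divided by length) on the coding sequence and both untranslated regions of a transcript model per gene, and the length of each region. Lysis was of 100 mg of tissue in cycloheximide and mapping was to RefSeq, per the labels. The submitters' processing notes name Bowtie and mm9. Strand, trimming and multiply mapping reads are not described in the sources used here.

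RPM values up to 2 were whole multiples of a step, the worth of 1 read, within the rounding of 0.005 for 100% of values in each library. The steps were 0.0354 (heart RPF), 0.107 (heart RNA), 0.035 (TA RPF) and 0.0621 (TA RNA). Random values would do so for 28.8, 9.53, 29.2 and 16.4%, so the reads derived for RPF are the less certain. Reads gave exact Poisson and conditional Clopper-Pearson intervals. Intervals of efficiency differences and of family shares are normal approximations on the log scale. With 1 library per group no count model could be fitted.

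Logs took a pseudocount of 0.1 RPM. Efficiencies were centred on the median gene of those that reached 1 RPM of RNA. Tissue ratios were left uncentred and cover genes whose RNA averaged 1 RPM or more over both tissues. Printed folds are ratios of reads without the pseudocount. Calls needed 2-fold. The members and lists were chosen with earlier results of these data known. All members are named. Of the wider list, the 2 highest and 2 lowest genes of each tissue comparison are named, and for each member the 2 nearest genes, except 1 gene that, like 1 promoter motif, is not reported here. GENCODE M21 transcripts gave a reading frame for 98.3% of genes. Protein sequences were not used here, and no sequences are printed for Myoz3 and Myot. The computations were tested on simulated data (Python 3.11.15, numpy 2.4.6, pandas 2.3.3, scipy 1.17.1, matplotlib 3.10.9).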

Additional observations from a re-analysis of the deposited data

Results flagged for a closer look

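Nes, the intermediate filament protein nestin, from the wider list, had efficiencies on opposite sides of the median gene in the 2 tissues: -0.36 in heart and 1.06 in TA on the log2 scale. The difference was not tested, since each tissue had 1 library of each kind.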

How the results depend on the processing

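No paired analysis was possible because each group had 1 library. Other pseudocounts (1 and 0.01), a minimum of 5 RPM or none, and summing the rows of a symbol left every count of members at least 2-fold higher or lower where it was. Uncentred, 1 member was at least 2-fold more efficient than equality in heart (Nexn) and 1 at least 2-fold less in TA (Myoz2), as with the length trend removed (1). Of the wider list, 9 genes were at least 2-fold lower in heart uncentred and 2 in TA, and 2 in heart with the length trend removed. Leaving out the centring shifts every gene of a tissue alike, by -0.44 in heart and -0.26 in TA on the log2 scale. The shares of all genes on these efficiency scales are not given here, so the counts of members and of the wider list have no background beside them. Centred tissue ratios gave 2 members lower in RNA, and 1 higher and 2 lower in RPF. Without the 50 most abundant genes RPF gave 1 higher and 2 lower. For the wider list these 2 scalings gave 7 and 9 genes higher and 15 and 14 lower in RNA. In RPF they gave 4 and 4 higher, with no share of all genes on either scaling given here. No member past 2-fold changed sign under any of these, whereas efficiencies within 2-fold did for Synpo2l (heart and TA), Flnc (heart) and Myoz1 (TA), and the tissue difference for Nexn and Synpo2l. Family shares moved with the reads counted. Over coding sequence and untranslated regions per kb, Actn3 took 93.6% of TA RNA and 83.9% of TA RPF, and Actn2 95.5% of heart RPF. Myoz1 took 93.1% of TA RNA and 95.9% of TA RPF, and Myoz3 4.71% and 2.78%. The smaller RPF share of Myoz3 there follows from dividing by its long 3-prime region, where footprints were nearly absent. Undivided by length, Myoz1 took 95.8 and 91.7% and Myoz3 2.09 and 7.19%. With values under 3 reads set to 3 reads, the members' median 3-prime footprint density was 0.518% in heart and 0.351% in TA, against 0.306 and 0.216%. Depth limits the untranslated-region values that rest on 0 to 5 reads, and no comparison has a replicate.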
